A study of Mus musculus with 9 samples.

Results

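The genes described here are the nuclear-encoded genes of oxidative phosphorylation in the mouse uterus. They were taken from the deposited count table by gene symbol: every symbol that starts with Nduf, Uqcr, Atp5, Cox4i, Cox5, Cox6, Cox7 or Cox8, together with Sdha, Sdhb, Sdhc, Sdhd, Cyc1 and Cycs. The choice used no measured value. It gave 99 of the 18094 genes in the table: 41 of complex I, 8 assembly factors of complex I, 4 of complex II, 9 of complex III, the gene of cytochrome c, 19 of complex IV and 17 of complex V, the ATP synthase. Of these genes, 78 encode structural subunits found in most tissues. The others are assembly factors, tissue-restricted isoforms, copies of a subunit gene, an electron carrier and a supercomplex factor. The mitochondrial DNA encodes further subunits, and 0 of those genes were in the table, so those subunits were not analysed here.

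RNA came from the whole uterus of 9 female mice killed at 13 weeks of age, 3 per group. The control mice were given solvent as newborns and, as adults, the vehicle of the drug. The tamoxifen mice, labelled AMS, were fed tamoxifen at 1 mg/kg on days 1 to 5 of life, which is used to model adenomyosis, the growth of endometrium into the uterine muscle, and were given vehicle as adults. The tamoxifen+primidone mice, labelled AMS_P, received the same neonatal tamoxifen and then primidone, an anticonvulsant, at 2 mg/kg per day by injection into the abdomen for 3 weeks from week 10. All mice were weaned at 3 weeks. No group received primidone without tamoxifen, so a difference between the groups on and off primidone applies to tamoxifen-exposed uterus alone. The sources used here do not give strain, litter or estrous stage.

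Oxidative phosphorylation is the final step of respiration. Complexes I and II pass electrons from NADH and succinate to ubiquinone, complex III passes them to cytochrome c, and complex IV passes them to oxygen. Complexes I, III and IV pump protons out of the mitochondrial matrix, and complex V lets them back to make ATP. In the uterus this supplies the contracting smooth muscle and the dividing and secreting endometrium. Apart from complex II, which is wholly nuclear-encoded, each complex is built from subunits of both genomes, and several complex IV subunits have isoforms restricted to striated muscle, lung, testis or brown fat.

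Library totals ran from 36393120 to 39958443 counts. The labelled tissue was checked with smooth muscle, epithelial and stromal markers. All 10 smooth muscle markers, all 8 stromal markers and 9 of 10 epithelial markers had enough counts to test, with medians of 252, 37.0 and 206 FPKM, and Prss29, a protease of uterine glands, averaged 0.0784 FPKM. FPKM, the deposited count scaled by gene length and library size, is used below to compare genes. CPM, the share of a library's counts scaled by TMM factors, is used to compare libraries for 1 gene. Markers of several cell types had medians away from 0. The median log2 fold change of the smooth muscle markers was -0.60 in tamoxifen against control and -0.59 in tamoxifen+primidone against control. In those comparisons the median over adipocyte markers was 1.82 and 2.01, over erythroid markers 1.21 and 1.78, and over liver markers 1.20 and 1.93. In tamoxifen against control 4 of 10 liver markers passed in edgeR, higher, and 0 of the other 3 lists (all genes 1.53%). In tamoxifen+primidone against control 9 of 10 liver and 1 of 6 erythroid markers passed, higher. There 2 of 10 smooth muscle markers passed, lower, and 0 of 10 adipocyte markers passed (all genes 5.35%). The epithelial markers had medians of 0.12 in tamoxifen against control, -0.37 in tamoxifen+primidone against tamoxifen (0 of 9 passed in edgeR, 7 at an unadjusted p under 0.05) and -0.31 in tamoxifen+primidone against control (2 of 9 passed, lower). The stromal markers had a median of 0.35 in the last comparison, with 1 of 8 passed, higher. Markers of cycling cells had medians of -1.56 in tamoxifen against control (2 of 10 passed, lower) and 1.20 in tamoxifen+primidone against tamoxifen (0 of 10 passed). At an unadjusted p under 0.05 there were 8 and 10 of 10 (all genes 17.8% and 13.8%). The median of 1.20 rested on 2 libraries. The first tamoxifen+primidone library was at -0.74 in mean log2 CPM relative to the 9 libraries, within the tamoxifen values of -0.87 to -0.67. The others were at 0.77 and 0.56. The part of these differences in the values below was not tested. In bulk tissue, fewer cells of a type and less RNA per cell cannot be told apart.

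The promoters of 79 of the 99 genes were listed by RefSeq on GRCm38.p6, a build older than the submitters' GRCm39, and were read for the 250 bases before the gene start. Cycs is shown because it encodes cytochrome c, the mobile carrier between complexes III and IV, and was 1 of the few genes with a wide spread below. Capitals mark a match to the core site of NRF-1, a transcription factor known for its sites in respiratory chain genes. The Cycs promoter, with 23 CpG dinucleotides, lies on the minus strand at chr6:50566570-50566819.
Cycs: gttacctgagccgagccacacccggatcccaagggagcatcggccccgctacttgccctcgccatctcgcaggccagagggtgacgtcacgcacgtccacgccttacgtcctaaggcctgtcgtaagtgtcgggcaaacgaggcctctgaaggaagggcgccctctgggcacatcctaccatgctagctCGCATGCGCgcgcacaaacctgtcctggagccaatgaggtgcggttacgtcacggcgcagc
The NRF-1 letters GCGCATGCG, or CGCATGCGC on the other strand, were in 8 of 79 promoters (10.1%): those of Ndufa8, Ndufa11, Ndufaf4, Cycs, Cox6a1, Atp5g2, Atp5k and Atp5l. Over 27025 genes the share was 1.64%. The ETS-family letters CCGGAAGT, or ACTTCCGG, were in 3 promoters (3.8%; all genes 3.23%), those of Uqcrh, Uqcr11 and Atp5h. The letters TCAAGGTCA, or TGACCTTGA, of the estrogen-related receptors were in 1 (1.27%; all genes 0.422%), that of Atp5g3.

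Cox8a and Cox8b are shown as a pair because they encode interchangeable forms of the same complex IV subunit and differed widely in level, with means of 278 and 0.822 FPKM. Capitals mark CpG dinucleotides. The Cox8a promoter is on the minus strand at chr19:7217617-7217866 with 11 CpG, and the Cox8b promoter is on the minus strand at chr7:140900447-140900696 with 1 CpG.
Cox8a: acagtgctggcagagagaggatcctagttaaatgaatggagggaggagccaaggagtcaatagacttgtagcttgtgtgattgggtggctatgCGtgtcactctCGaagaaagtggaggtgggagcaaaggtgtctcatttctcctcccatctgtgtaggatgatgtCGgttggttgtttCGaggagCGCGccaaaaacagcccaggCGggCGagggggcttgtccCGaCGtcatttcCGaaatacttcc
Cox8b: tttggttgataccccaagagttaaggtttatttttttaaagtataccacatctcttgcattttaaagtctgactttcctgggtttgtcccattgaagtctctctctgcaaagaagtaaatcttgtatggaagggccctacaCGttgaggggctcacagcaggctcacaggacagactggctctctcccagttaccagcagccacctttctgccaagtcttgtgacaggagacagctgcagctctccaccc
Across 65 structural subunit genes the promoters held a median of 15 CpG (4 to 35), against 6 (0 to 56) over all genes. The 4 tissue-restricted isoform genes with a listed promoter had a median of 6 (1 to 9).

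**Figure D1:**
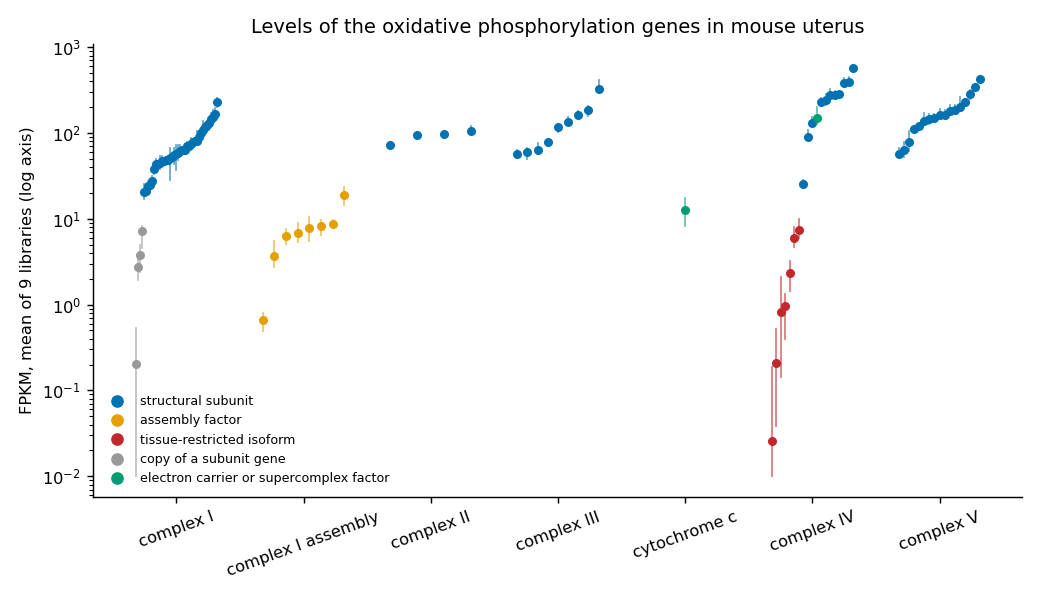
Mean FPKM of each gene over the 9 libraries (points, log axis) with the range from lowest to highest library (lines), by complex; lines of 2 genes with libraries at 0 are cut at the foot of the plot. Structural subunits lie between 20.3 and 565 FPKM, and tissue-restricted isoforms of complex IV lie at or below 7.40 FPKM.

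The structural subunits were abundant in every library. Their mean level ran from 20.3 FPKM for Ndufab1, the mitochondrial acyl carrier protein, to 565 FPKM for Cox4i1, the common form of subunit 4 of cytochrome oxidase. All 78 were above 20 FPKM and 37 were above 100 FPKM, while the median over all genes tested was 6.37 FPKM. In the plot of levels by complex, complex I had the lowest median of the 5 complexes and the common complex IV subunits the highest. Complex I core subunits, which carry the flavin and iron-sulfur clusters, had a median of 51.6 FPKM, with Ndufs1 the lowest at 24.4. Its 30 accessory subunits had a median of 63.6 FPKM, from Ndufab1 to Ndufa6 at 228 FPKM.

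The 4 subunits of complex II, which is also an enzyme of the citric acid cycle, lay close together. The flavoprotein gene Sdha was at 94.7 FPKM, the iron-sulfur subunit gene Sdhb at 105, and the membrane anchor genes Sdhc and Sdhd at 72.2 and 98.4, a range of 1.45-fold. Complex III had a median of 117 FPKM, from Uqcrfs1, the Rieske iron-sulfur protein, at 57.1 to Uqcrh, the hinge protein, at 324. The 11 common complex IV genes had a median of 274 FPKM, from Cox5a at 25.4 to Cox4i1. Ndufa4, named for complex I but a subunit of complex IV, was at 381 FPKM. Complex V had a median of 162 FPKM, from Atp5mpl, a small membrane subunit, at 57.0 to Atp5b, the catalytic beta subunit, at 424. Cycs was at 12.6 FPKM and the 8 complex I assembly factors had a median of 7.31 FPKM, from Ndufaf6 at 0.662 to Ndufaf8 at 19.0. Thus the assembly factors lay below every structural subunit.

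No oxidative phosphorylation gene passed the test in any comparison. Of 99 genes, 96 had enough counts to test, and Cox6a2, Cox7b2 and Ndufb4c did not. With edgeR's quasi-likelihood test and Benjamini-Hochberg adjustment over 15186 genes, 0 of 96 had an adjusted p under 0.05 in tamoxifen against control, where 1.53% of all genes did. The count was 0 of 96 in tamoxifen+primidone against tamoxifen (all genes 0.0132%) and 0 of 96 in tamoxifen+primidone against control (all genes 5.35%). It was also 0 of 96 in the test of any difference among the 3 groups (all genes 3.84%). DESeq2 called 0, 1 and 0 of the genes in the 3 comparisons, where it called 7.53%, 3.9% and 12.4% of all genes. Limma-voom called 0 in each, where it called 1.14%, 0.0132% and 4.91%. At an unadjusted p under 0.05, DESeq2 had 2, 4 and 4 of the genes and limma-voom 2, 4 and 3. The test of any difference had 4 of 96 (4.17%) at that level, against 23.4% of all genes.

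Calls without adjustment were also fewer than over all genes. At an unadjusted p under 0.05, 2 of 96 genes stood out in tamoxifen against control (all genes 17.8%), 4 in tamoxifen+primidone against tamoxifen (all genes 13.8%) and 3 in tamoxifen+primidone against control (all genes 23.2%). In tamoxifen against control, the 3 libraries of each group did not overlap for 17 genes, or 17.7% against 26.1% of all genes. Of these, 3 were higher (all genes 12.7%) and 14 lower (all genes 13.4%), so the share that lay lower was near that of all genes and the share that lay higher was below it. In tamoxifen+primidone against tamoxifen this held for 8 genes, or 8.33% against 16.6%, with 5 higher (all genes 8.08%) and 3 lower (all genes 8.55%). In tamoxifen+primidone against control it held for 11 genes, or 11.5% against 29.1%, with 3 higher (all genes 14.1%) and 8 lower (all genes 15.1%). The comparisons share libraries and are not independent of each other.

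The fold changes were small and their intervals were narrow. The median log2 fold change over the 96 genes was -0.04 in tamoxifen against control, 0.02 in tamoxifen+primidone against tamoxifen and 0.01 in tamoxifen+primidone against control, beside 0.00018, 0.02 and 0.01 over all genes. In tamoxifen against control 37 genes had a positive and 59 a negative value. In tamoxifen+primidone against tamoxifen the split was 62 to 34, and it was 84 to 12 when libraries were scaled by their totals alone and 44 to 52 when a trend with gene length was removed. In tamoxifen+primidone against control the split was 51 to 45, and those alternatives gave 74 to 22 and 38 to 58. The median of the last 2 comparisons was positive under all 4 library scalings tried and negative, at -0.01 and -0.02, when the gene-length trend was removed. Without the second tamoxifen library the median of tamoxifen against control was 0.01.

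For 76 of the 78 structural subunits, the 95% interval of the fold change stayed within 1.5-fold in either direction in each of the 3 comparisons. Ndufa12 and Ndufv2, both of complex I, were the exceptions each time, and all 78 stayed within 2-fold. Over all 96 genes the share within 1.5-fold was 86.5%, 87.5% and 82.3%, beside 55.3%, 57.0% and 51.8% of all genes tested. Other mitochondrial lists, read below, also had high shares. The share was 93.6% in each comparison over mitochondrial ribosomal protein genes, and 90%, 100% and 90% over citric acid cycle and pyruvate dehydrogenase genes. Over carrier, import and cristae genes it was 84.6%, 88.5% and 88.5%, and over fatty acid oxidation genes 72.2%, 88.9% and 72.2%. In tamoxifen against control the structural subunits ran from a log2 fold change of -0.28 for Atp5j to 0.32 for Ndufv2. In tamoxifen+primidone against tamoxifen the highest value was 0.21 for Ndufs7, and in tamoxifen+primidone against control they ran from -0.27 for Ndufa6 to 0.39 for Ndufv2.

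**Figure D2:**
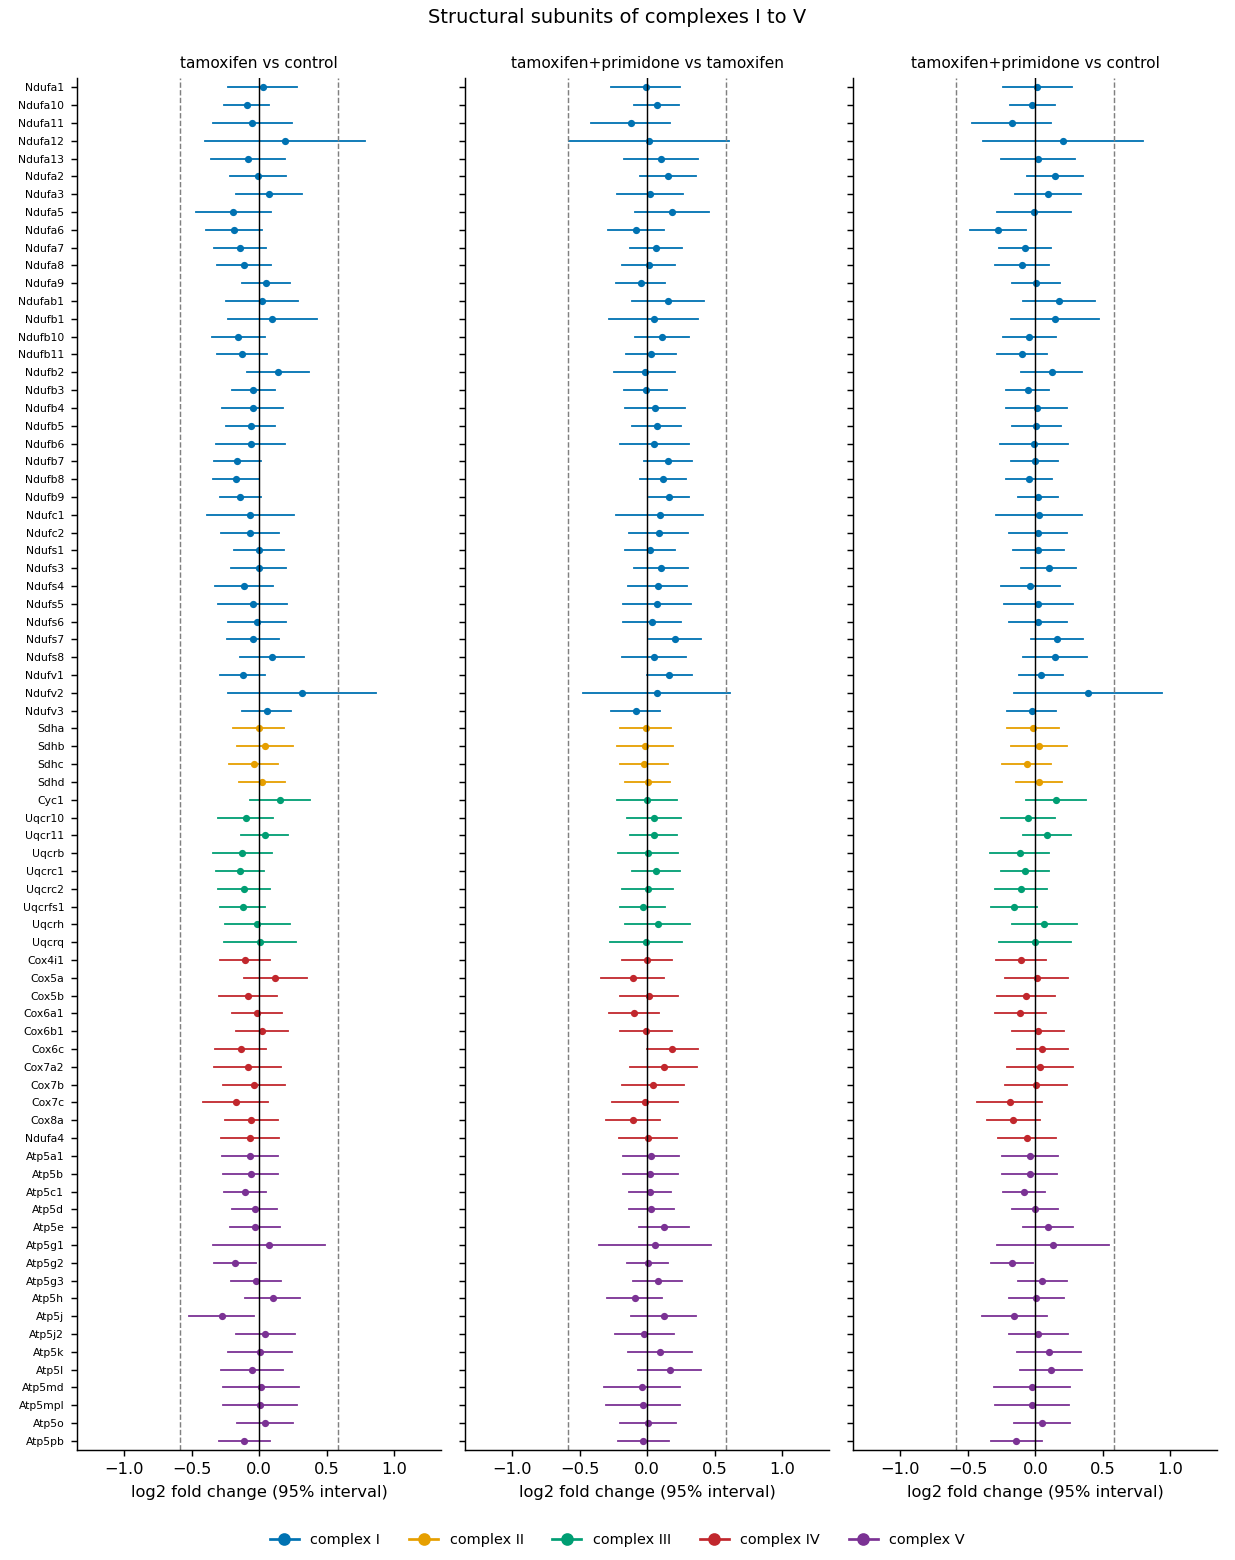
Log2 fold change (points) with its 95% interval (lines) for 77 structural subunits in the 3 comparisons, coloured by complex; dashed lines mark 1.5-fold in either direction. Ndufa12 and Ndufv2 are the 2 genes whose intervals cross the dashed lines in each comparison.

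Summed over the genes, the share of each library's counts was 0.946%, 0.952% and 0.988% in the control libraries. With tamoxifen the libraries gave 0.939%, 0.899% and 0.958%, and with primidone added they gave 1.03%, 0.932% and 1.03%. The groups overlapped. After TMM scaling the mean over the 96 genes, as log2 CPM relative to the 9 libraries, was 0.01, -0.04 and 0.05 in control, 0.02, -0.10 and 0.01 in tamoxifen, and 0.04, -0.09 and 0.12 in tamoxifen+primidone. The second tamoxifen and the second tamoxifen+primidone library were lowest and the third tamoxifen+primidone library was highest.

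**Figure D3:**
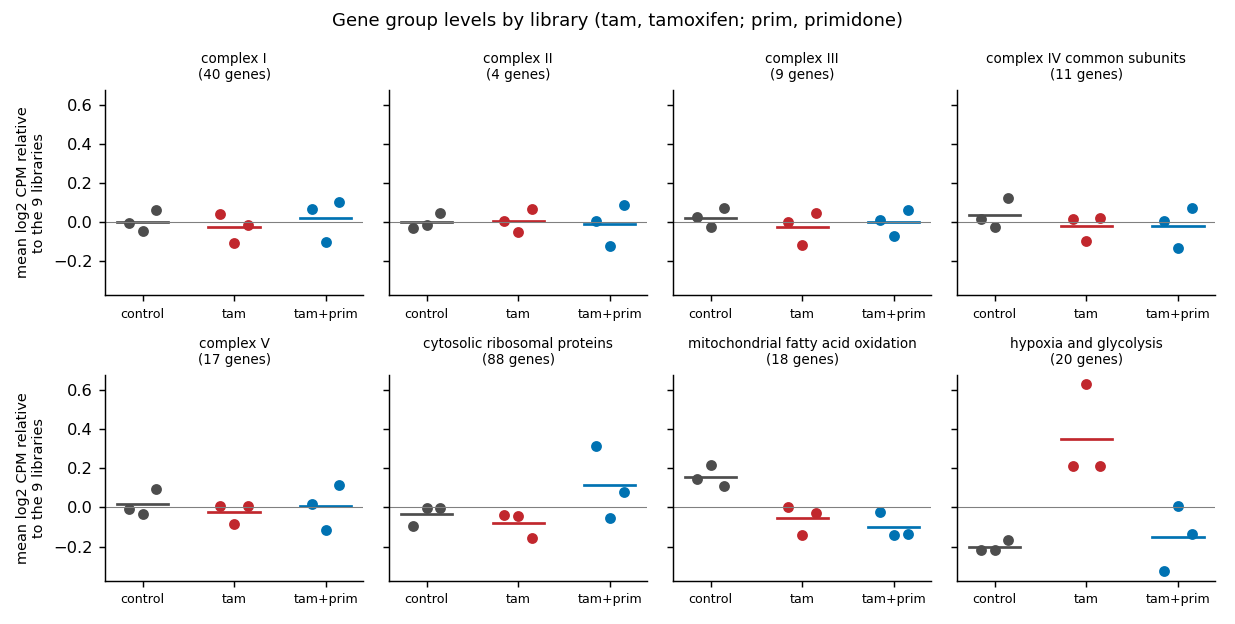
Mean log2 CPM relative to the 9 libraries for each gene group (points, 1 per library; line, mean of 3), for complexes I, II, III and V, the 11 common subunits of complex IV and 3 other gene lists on the same axis. The values of these complexes and of the common complex IV subunits overlap between the groups, while the hypoxia and glycolysis genes of the 3 tamoxifen libraries lie at 0.21, 0.63 and 0.21, above every other library.

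Complex I was the largest group, and 40 of its 41 genes were tested. Its median log2 fold change was -0.05 in tamoxifen against control, 0.06 in tamoxifen+primidone against tamoxifen and 0.01 in tamoxifen+primidone against control. Ndufb8, an accessory subunit of the membrane arm, had the smallest p of the complex in the first comparison. Its level was 100.9, 106 and 109 CPM in control and 96.8, 87.7 and 96.8 CPM in tamoxifen, so that the groups did not overlap. It was 103, 95.9 and 107 CPM in tamoxifen+primidone. The log2 fold change of tamoxifen against control was -0.17 ± 0.08 (SE; edgeR adjusted p = 0.285).

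Ndufa6, an accessory subunit of the complex I arm in the matrix and the most abundant complex I transcript, came nearest to the threshold in tamoxifen+primidone against control. It had 134, 144 and 147 CPM in control, 138, 114 and 120 CPM in tamoxifen and 128, 110.0 and 114 CPM in tamoxifen+primidone. Every tamoxifen+primidone library was below every control library. The log2 fold change was -0.27 ± 0.09 (SE; edgeR adjusted p = 0.114), with an interval from -0.48 to -0.07. The call was made when the trend with gene length was removed (log2 fold change -0.32, adjusted p = 0.0431).

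Ndufs7, a core subunit that holds an iron-sulfur cluster near the ubiquinone site, was at 47.3, 50.3 and 48.1 CPM in control, 47.9, 42.5 and 50.7 CPM in tamoxifen and 57.2, 52.9 and 52.6 CPM in tamoxifen+primidone. All 3 tamoxifen+primidone libraries were above the other 6, with a log2 fold change over tamoxifen of 0.21 ± 0.09 (SE; edgeR adjusted p = 0.328).

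Ndufb9, another membrane-arm subunit, had nearly equal levels in the tamoxifen libraries, 78.0, 77.8 and 77.8 CPM, below 87.0, 84.9 and 85.4 CPM in control and 92.0, 84.5 and 84.3 CPM in tamoxifen+primidone. The log2 fold change was -0.14 ± 0.07 against control and 0.16 ± 0.07 for tamoxifen+primidone against tamoxifen (edgeR adjusted p = 0.312 and 0.332). Ndufb9, Ndufa12 and Ndufv2 were picked after their values were seen. Among the 8 assembly factors, which help build complex I but are not part of it, Ndufaf3 had the smallest p in tamoxifen against control, with 12.6, 13.6 and 14.2 CPM in control and 11.7, 9.43 and 12.3 CPM in tamoxifen (edgeR adjusted p = 0.44). Ndufaf4 reached 13.1, 14.4 and 19.9 CPM in tamoxifen+primidone, against 11.7, 9.99 and 13.4 CPM in control (log2 fold change 0.44 ± 0.19 SE; edgeR adjusted p = 0.201). Its groups overlapped.

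The complex II genes lay close to a log2 fold change of 0 in each comparison. The medians over its 4 genes were 0.01, -0.02 and 0.005 in the 3 comparisons. Sdha was at 272, 274 and 270.0 CPM in control, 270, 259 and 285 CPM in tamoxifen and 276, 241 and 291 CPM in tamoxifen+primidone. Its log2 fold change between tamoxifen and control was -0.003, with an interval from -0.19 to 0.19. Sdhb, Sdhc and Sdhd had log2 fold changes from -0.06 to 0.04 over the 3 comparisons. The smallest p in the complex was that of Sdhc each time (edgeR adjusted p = 0.849, 0.929 and 0.686).

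Complex III had medians of -0.10, 0.01 and -0.05 over 9 genes. Uqcrc1, a core protein, was at 204, 209 and 200.1 CPM in control, 184, 169 and 202 CPM in tamoxifen and 190, 192 and 198 CPM in tamoxifen+primidone. All tamoxifen+primidone libraries were below control, by a log2 fold change of -0.08 ± 0.08 (SE; edgeR adjusted p = 0.609). Uqcrc1 had the smallest p of complex III in tamoxifen against control (edgeR adjusted p = 0.387). The same held in tamoxifen+primidone against tamoxifen (edgeR adjusted p = 0.776). Uqcrfs1 was at 80.6, 83.2 and 76.1 CPM in control, 75.1, 67.8 and 77.4 CPM in tamoxifen and 73.1, 70.8 and 71.2 CPM in tamoxifen+primidone (tamoxifen+primidone against control -0.16 ± 0.08 SE; edgeR adjusted p = 0.246). Cyc1, the cytochrome c1 that hands electrons to cytochrome c, lay on the other side, at 95.5, 90.2 and 92.3 CPM in control and 98.7, 102.01 and 109 CPM in tamoxifen+primidone. Its log2 fold change was 0.15 ± 0.10 (SE; edgeR adjusted p = 0.382), with no overlap between these groups.

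The 11 common subunits of complex IV had medians of -0.07, -0.002 and -0.06. Cox4i1 was at 450, 456 and 453 CPM in control, 449, 409 and 407 CPM in tamoxifen and 457, 392 and 414 CPM in tamoxifen+primidone. The control libraries were the most alike, and the log2 fold change of tamoxifen was -0.10 ± 0.09 (SE; edgeR adjusted p = 0.565). Cox5a had log2 fold changes of 0.12, -0.11 and 0.01, and Cox6b1, which sits on the outer face of the complex, of 0.02, -0.01 and 0.02. Cox7a2l, which links complexes III and IV into supercomplexes, was at 222, 163 and 160 CPM in tamoxifen+primidone, against 162, 174 and 176 CPM in control and 178, 160 and 148 CPM in tamoxifen (tamoxifen+primidone against tamoxifen 0.16 ± 0.13 SE; edgeR adjusted p = 0.626). The first tamoxifen+primidone library stood above the other 8.

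The tissue-restricted isoforms of complex IV were minor in all libraries. Measured as a share of the FPKM of both forms, Cox4i2, the oxygen-responsive form best known from lung, gave 0.252% to 0.616% of Cox4i. Cox6b2, the testis form, gave 1.47% to 2.15% of Cox6b, and Cox7a1, the heart and muscle form, gave 0.478% to 1.55% of Cox7a1 and Cox7a2. Cox6a2, the striated muscle form, had 1 to 13 counts per library and Cox7b2 0 to 4 counts. None of the 5 tested isoforms passed the edgeR test, and Cox8c was not analysed here.

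Ndufa4l2, a paralog of Ndufa4 known as a hypoxia-inducible gene and a pericyte marker, had the smallest adjusted p of the 96 genes in tamoxifen+primidone against tamoxifen. It was at 7.89, 6.24 and 6.80 CPM in control, 6.98, 8.33 and 9.41 CPM in tamoxifen and 5.77, 5.47 and 5.31 CPM in tamoxifen+primidone. The tamoxifen+primidone libraries were the 3 lowest of 9. Against tamoxifen the log2 fold change was -0.58 ± 0.18 (SE; edgeR adjusted p = 0.198), with an interval from -0.97 to -0.19, and DESeq2 called it (log2 fold change -0.58, adjusted p = 0.0439). Its share of Ndufa4 and Ndufa4l2 FPKM was 1.73%, 1.56% and 1.30% in control, 1.61%, 1.92% and 2.07% in tamoxifen and 1.28%, 1.28% and 1.21% in tamoxifen+primidone.

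Pericyte and hypoxia genes are given beside Ndufa4l2. The 8 pericyte markers, all tested, summed to 400 to 467 CPM in control, 488 to 538 CPM in tamoxifen and 411 to 466 CPM in tamoxifen+primidone, and none was at 0. Their median log2 fold change in tamoxifen+primidone against tamoxifen was -0.20, with 0 passed in edgeR (1 at an unadjusted p under 0.05). The 20 hypoxia and glycolysis genes had a median of 0.48 in tamoxifen against control (20 positive) and -0.44 in tamoxifen+primidone against tamoxifen (19 negative). The part of either in the Ndufa4l2 values was not tested.

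Cox8b, the heart, muscle and brown fat form of subunit 8, had too few counts for a stable fold. Its counts were 19, 11 and 2 in control, 4, 2 and 3 in tamoxifen and 12, 29 and 21 in tamoxifen+primidone. Each tamoxifen+primidone library was above each tamoxifen library, and the control libraries spanned both. The edgeR adjusted p was 0.20 for tamoxifen+primidone against tamoxifen and 0.294 for tamoxifen against control. Cox8b gave at most 0.818% of Cox8 FPKM in any library. Of 11 adipocyte markers 10 were tested, and their sum was 92.5 to 101.99 CPM in control, 114 to 381 CPM in tamoxifen and 148 to 481 CPM in tamoxifen+primidone; the brown fat gene Ucp1 was listed at 0 in every control and tamoxifen+primidone library and reached 0.0153 FPKM in tamoxifen. Of 14 striated muscle markers 8 were tested, and their sum was 71.7 to 92.7, 39.5 to 72.1 and 54.5 to 67.8 CPM. Their part in the Cox8b counts was not tested.

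Complex V had medians of -0.03, 0.02 and -0.001 over 17 genes, and its 5 F1 subunits, the catalytic head, all had negative values in tamoxifen against control (median -0.06, 0 passed). Atp5b was at 810, 800.2 and 839 CPM in control, 759, 741 and 845 CPM in tamoxifen and 738, 787 and 855 CPM in tamoxifen+primidone. Its groups overlapped, and its log2 fold changes were -0.06, 0.02 and -0.04. Atp5j, coupling factor 6 in the stalk, was at 98.9, 97.4 and 122 CPM in control, 92.6, 80.8 and 89.2 CPM in tamoxifen and 99.9, 85.7 and 100.6 CPM in tamoxifen+primidone. The tamoxifen libraries lay below control, by a log2 fold change of -0.28 ± 0.11 (SE; edgeR adjusted p = 0.216). In tamoxifen+primidone against tamoxifen the smallest p of complex V was that of Atp5l (edgeR adjusted p = 0.525).

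The c subunit, which forms the rotor ring, is encoded by 3 genes that give the same mature protein. Atp5g2 was at 160, 155 and 165 CPM in control, 143, 145 and 137 CPM in tamoxifen and 147, 136 and 143 CPM in tamoxifen+primidone. All 6 libraries of tamoxifen-exposed mice were below all 3 control libraries. The log2 fold change was -0.18 ± 0.07 (SE; edgeR adjusted p = 0.217) in tamoxifen and -0.17 ± 0.07 (SE; edgeR adjusted p = 0.165) in tamoxifen+primidone. As a share of c subunit FPKM, Atp5g2 gave 51.2%, 51.4% and 51.0% in control, 48.5%, 50.4% and 45.3% in tamoxifen and 46.9%, 49.3% and 44.6% in tamoxifen+primidone.

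Atp5g1 gave 15.3%, 15.6% and 15.4% of c subunit FPKM in control, 18%, 13.8% and 19.6% in tamoxifen and 15.6%, 15.1% and 21.2% in tamoxifen+primidone. Atp5g3 gave 33.0% to 37.4% over the 9 libraries. The control uteri were alike in this mixture: the SD of the Atp5g1 share was 0.132 percentage points over the 3 control libraries, 2.99 over the tamoxifen libraries and 3.36 over the tamoxifen+primidone libraries. This difference in spread was not tested. Transcripts of 19 other genes, 2 of them pseudogenes, matched part of the Atp5g1 transcript, over 18.3% of its length.

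**Figure D4:**
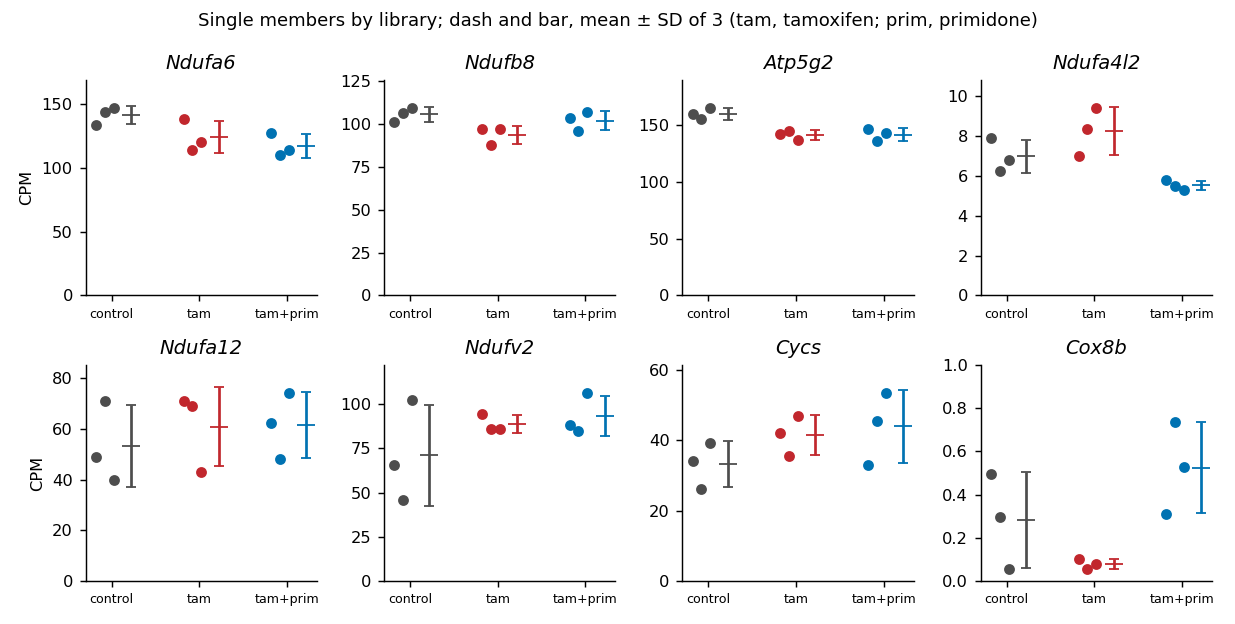
CPM of 8 genes in each library (points), with the mean and SD of 3 libraries per group (dash and bar); each panel has its own axis from 0. Ndufa6 and Atp5g2 lie lower in tamoxifen+primidone than in control, Ndufa4l2 lies lowest in tamoxifen+primidone, and Ndufa12, Ndufv2 and Cycs vary between libraries of a group.

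The oxidative phosphorylation genes also varied little between libraries of a group. The SD of log2 CPM within groups, pooled over the 3 groups, had a median of 0.106 over the 78 structural subunits, beside 0.186 over all genes tested, 0.124 over 78 mitochondrial ribosomal protein genes and 0.138 over 88 cytosolic ribosomal protein genes. Over all 96 tested genes the median was 0.117. A low SD was not particular to these genes. The median was 0.104 over 26 genes of mitochondrial carriers, import and cristae and 0.104 over 18 fatty acid oxidation genes. It was 0.107 over 9 epithelial markers and 0.114 over 20 genes of the citric acid cycle and pyruvate dehydrogenase. Assembly factors of complexes II to V had 0.140 and regulators of mitochondrial biogenesis 0.134. The SD exceeded 0.2 for 3 structural subunits (3.85%) and for 46.3% of all genes. Counting error is smaller at high levels, and the structural subunits had a median of 96.6 FPKM against 6.37 over all genes; its part in the low SD was not tested. The 3 exceptions were Ndufa12 with an SD of 0.384, Ndufv2 with 0.351 and Atp5g1 with 0.270.

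**Figure D5:**
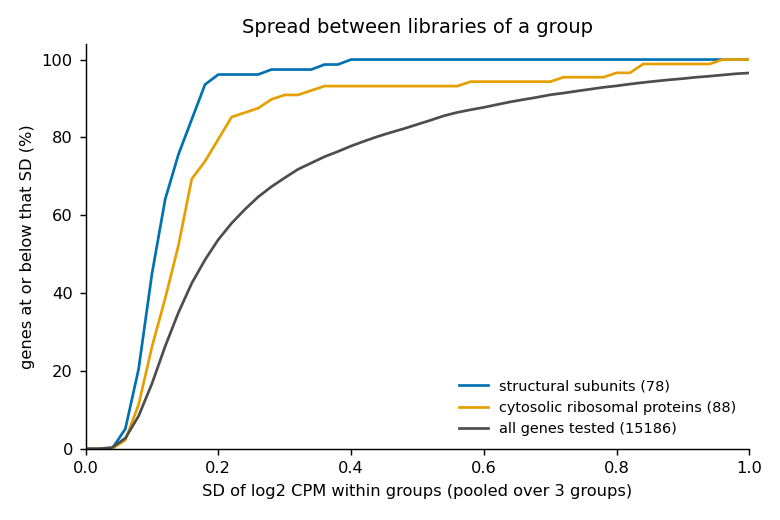
Share of genes (percent) at or below each within-group SD of log2 CPM, pooled over the 3 groups, for 78 structural subunits, 88 cytosolic ribosomal protein genes and all 15186 genes tested. The curve of the structural subunits rises first, with 3.85% of them above an SD of 0.2 against 46.3% of all genes.

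Ndufa12, an accessory subunit of complex I, was at 48.8, 71.2 and 40.01 CPM in control, 71.0, 68.9 and 42.8 CPM in tamoxifen and 62.2, 48.2 and 74.1 CPM in tamoxifen+primidone. The highest and lowest libraries were spread over the 3 groups, at 1483 to 2946 counts. Ndufv2, which holds an iron-sulfur cluster at the NADH end, was at 65.3, 45.9 and 102.2 CPM in control, 94.7, 85.9 and 85.7 CPM in tamoxifen and 88.3, 84.9 and 106 CPM in tamoxifen+primidone. Its spread came from the control libraries, 2 of which were the lowest of 9. Its log2 fold change was 0.32 ± 0.24 and 0.39 ± 0.24 (SE) against control (edgeR adjusted p = 0.536 and 0.37). Cycs was at 34.2, 26.2 and 39.4 CPM in control, 42.0, 35.6 and 46.9 CPM in tamoxifen and 32.9, 45.6 and 53.5 CPM in tamoxifen+primidone, with an SD of 0.292. Its log2 fold change was 0.40 ± 0.20 (SE) in tamoxifen+primidone against control (edgeR adjusted p = 0.256), with an interval from -0.04 to 0.85.

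Many of these genes have processed copies in the genome, and reads from near-identical copies can be split or lost in counting. In GENCODE vM21 transcripts, 43 of the 98 genes with a transcript matched a transcript of another gene at 95% identity or more over at least 100 bases. The 41 structural subunits without a match had a median of 98.4 FPKM and a within-group SD of 0.099. The 29 with matches over less of the transcript than 50% had 77.7 FPKM and 0.116, and the 8 with matches over 50% or more had 145 FPKM and 0.110. The part of such copies in the spread was not tested. Of the 3 most variable structural subunits, Ndufa12 matched 1 pseudogene over 36.2% of its transcript, Atp5g1 matched as given above, and Ndufv2 had no match. Cycs matched 51 other genes over 35.0%, and 3 of these were pseudogenes. The matches thus include genes that are not listed as pseudogenes. The sources used here do not state the strand setting of the counting, so reads of overlapping antisense genes cannot be told apart.

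Related mitochondrial genes were read from lists named by function. The counts that passed are set against all genes, of which 1.53% passed in tamoxifen against control, 0.0132% in tamoxifen+primidone against tamoxifen and 5.35% in tamoxifen+primidone against control. Of 35 tested assembly factors of complexes II to V, 0 passed the edgeR test in tamoxifen against control (5 at an unadjusted p under 0.05) and 0 in tamoxifen+primidone against tamoxifen (3 at that level). In tamoxifen+primidone against control 1 fell, Cox15, which makes the heme A of complex IV, from 32.6, 31.0 and 33.8 CPM to 27.1, 25.003 and 25.4 CPM (log2 fold change -0.33 ± 0.08 SE; adjusted p = 0.0489). None of 20 genes of the citric acid cycle and pyruvate dehydrogenase passed (2, 1 and 1 at an unadjusted p under 0.05), with medians of 0.001, 0.02 and 0.02. None of 21 regulators of mitochondrial biogenesis passed (2, 1 and 5 at that level), with medians of 0.01, 0.04 and 0.001. Of 26 genes of carriers, import and cristae 1 passed, the inner-membrane carrier Ucp2, lower in tamoxifen+primidone against control (-0.50 ± 0.11 SE; adjusted p = 0.0308). Of 10 genes of mitochondrial redox defence 1 passed, the peroxidase Gpx1, lower in tamoxifen+primidone against control (-0.44 ± 0.11 SE; adjusted p = 0.0453). Of 78 mitochondrial ribosomal protein genes 2 passed in that comparison, Mrpl38 higher (0.37 ± 0.09 SE; adjusted p = 0.0386) and Mrps6 lower (-0.73 ± 0.19 SE; adjusted p = 0.0499). These 2 of 78 are a smaller share than the 5.35% of all genes. At an unadjusted p under 0.05 there were 5, 2 and 9 of the 26 genes of carriers, import and cristae. For redox defence there were 0, 2 and 2 of 10, and for mitochondrial ribosomal proteins 5, 3 and 8 of 78. The shares of all genes at that level were 17.8%, 13.8% and 23.2%.

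Fatty acid oxidation genes, which feed electrons to the chain, were read in the same way. At an unadjusted p under 0.05 there were 7, 3 and 8 of 18 in the 3 comparisons (all genes 17.8%, 13.8% and 23.2%). All 18 had negative values in tamoxifen against control (median -0.19) and in tamoxifen+primidone against control (median -0.22). The gene that passed was Cpt1a, which controls the entry of long-chain fatty acids into mitochondria. It was at 258, 261 and 225 CPM in control, 173, 151 and 164 CPM in tamoxifen and 144, 139 and 135 CPM in tamoxifen+primidone. Every library of tamoxifen-exposed mice was below every control library, with log2 fold changes of -0.61 ± 0.09 (SE; edgeR adjusted p = 0.014) and -0.83 ± 0.09 (SE; edgeR adjusted p = 0.0021). Of the 20 hypoxia and glycolysis genes 3 rose in tamoxifen against control: the glucose transporter Slc2a1 by 0.92, the hexokinase Hk2 by 1.56 and the prolyl hydroxylase P4ha1 by 1.02 on the log2 scale (edgeR adjusted p = 0.0456, 0.0236 and 0.009). Of the same 20 genes, 0 passed in tamoxifen+primidone against tamoxifen. In tamoxifen+primidone against control 1 passed, higher (edgeR adjusted p = 0.00915). At an unadjusted p under 0.05 there were 15, 13 and 4 of 20 in the 3 comparisons (all genes 17.8%, 13.8% and 23.2%). In tamoxifen against control the structural subunits had a median of -0.05. The difference between these lists was not tested.

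The 88 cytosolic ribosomal protein genes, which are abundant and short like the oxidative phosphorylation genes, served as a second reference. None passed in edgeR in any comparison. At an unadjusted p under 0.05 there were 3 of 88 in tamoxifen against control (all genes 17.8%), 21 of 88 in tamoxifen+primidone against tamoxifen (all genes 13.8%) and 4 of 88 in tamoxifen+primidone against control (all genes 23.2%). The second count lay above the share of all genes and the other two lay below it. Their medians were -0.08, 0.20 and 0.14, and the first tamoxifen+primidone library was highest at 0.31 in mean log2 CPM relative to the 9 libraries, where the oxidative phosphorylation genes were at 0.04.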

How the data were processed

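RNA sequencing of 9 whole mouse uteri, 3 per group, was analysed from the authors' deposited table of read counts per gene, as whole numbers, and from the FPKM values that the authors deposited beside them. The submitters' processing notes name DESeq2, HTSeq, HISAT2, R 3.2.0 and the build GRCm39, and the sources used here give no annotation, strand setting or role of each tool. Groups and replicate numbers came from the sample titles, and nothing says that the mice came from separate litters.

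The main test was edgeR 4.0.16's quasi-likelihood test in R 4.3.3 (TMM factors, default low-count filter by group, robust dispersion, 1 fit of 9 libraries); 15186 genes were tested and adjusted together by Benjamini-Hochberg, with a threshold of 0.05. An SE is the log2 fold change divided by the root of F, and 95% intervals use it with the t distribution. CPM used a prior count of 2 on the log scale. Depth was at least 36393120 counts per library, and precision is given by the spread over 3 libraries per group. DESeq2 1.42.0, limma 3.58.1 on voom weights and on log2 FPKM, other scalings, no filter, a gene-length trend, a replicate block and each library left out were the alternatives. Promoters came from a RefSeq table, and near-identical copies from BLAST 2.17.0 of GENCODE vM21 transcripts. The main test was also checked on simulated counts.

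The genes and the lists beside them were chosen with earlier results of these data known, so their counts are read against all genes and no list was tested as a set. Named genes are those that passed, the smallest p of each complex in each comparison, the isoform sets, the most and least abundant structural subunit of each complex, complex II, Cyc1 and Cycs; others are said to have been picked after their values were seen. Results of 1 subunit gene are not reported here, though it is part of the counts and medians.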

Additional observations from a re-analysis of the deposited data

How the results depend on the processing

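No oxidative phosphorylation gene was called in tamoxifen against control under any of the 12 alternatives that kept all libraries, nor in any comparison when a library was left out. DESeq2 called 1 gene in tamoxifen+primidone against tamoxifen, Ndufa4l2, while calling 3.90% of all genes there. Removing the trend with gene length gave 1 call in tamoxifen+primidone against control, Ndufa6. The median log2 fold change over the genes in tamoxifen+primidone against tamoxifen was 0.0989 on log2(FPKM + 0.1), and in tamoxifen+primidone against control it was 0.0832 with scaling by library totals alone; the cause of either was not tested. Leaving out 1 library at a time gave medians from -0.0591 to 0.00789 in tamoxifen against control. The range was -0.0210 to 0.0782 in the comparison of primidone with tamoxifen alone, and -0.0491 to 0.0551 in that of primidone with control, with 0 genes called each time. The median turned sign without the second tamoxifen library (0.00789 in tamoxifen against control, -0.0108 for primidone against tamoxifen alone) and without the third tamoxifen+primidone library (-0.0210 and, against control, -0.0491). Against control it was also negative without the first control (-0.0111), the second control (-0.0239) or the first tamoxifen+primidone library (-0.0204). Of 2381 values for 38 named genes, 2379 stayed on their side of the threshold and 2 newly passed it; 196 had the other sign than in the main test, all for genes not called there.

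Whether the replicate numbers pair the libraries could not be decided with 3 libraries per group. With group means removed, same-numbered libraries had correlations from -0.134 to 0.177 over all genes. Over the 96 genes these ran from -0.316 to 0.216. The second library had the lowest mean over the 96 genes in every group, at -0.04, -0.10 and -0.09. With a replicate block 0 of the 96 genes were called in each comparison and their medians were -0.0405, 0.0241 and 0.0056. Of all genes, 2.09%, 0.349% and 6.48% were called with the block, against 1.53%, 0.0132% and 5.35% without it. With 3 libraries per group, the 95% interval of a gene reached a median of 0.218 on either side of its log2 fold change in tamoxifen against control. That interval is not adjusted for the number of genes tested, so a call mostly needed a larger difference. In that comparison Atp5j, at -0.28, was not called.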
